A study of Homo sapiens with 90 samples.

Results

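The genes described here are 39 members of the ATP-binding cassette (ABC) transporter family, measured in A673 cells, a human Ewing sarcoma line. Members were genes with a symbol of the form ABC, a letter from A to G and a number, for which the array carried a probe set annotated to that gene alone. ABCA1, ABCG1 and pseudogenes were left out. The 39 genes were covered by 84 probe sets, of 19774 genes and 54613 probe sets in all, and each gene was represented by its brightest probe set, averaged across the 90 columns. ABCA10 and ABCC6 were not analysed here. Cells were kept for 24 h with fenbuconazole (a triazole fungicide), imazalil (an imidazole fungicide) or 2,4-D (2,4-dichlorophenoxyacetic acid, a chlorophenoxy herbicide). Each chemical was tested at 9 concentrations between 0.001 and 10 µM, against the solvent DMSO at 0.2%, which every treated well also held. RNA was measured on Affymetrix HT HG-U133+ PM arrays, with 3 arrays per group and 30 columns per chemical. A673 is 1 cell line, and no other cells were analysed here.

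ABC transporters use the energy of ATP to move substrates across membranes. Several pump drugs and conjugated metabolites out of cells, and ABCB1 (P-glycoprotein) is the classic multidrug pump of tumour cells, whose gene can be induced by xenobiotics through the nuclear receptor PXR in liver and gut. Others move lipids, bile salts, sterols, peptides or vitamins, or gate potassium channels, and the ABCE and ABCF proteins have no membrane part and act on ribosomes.

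The deposited values are log2 levels from robust multi-array averaging (RMA), run separately for each chemical, so levels were read only within a chemical's set. The 3 DMSO arrays are labelled as common to the 3 sets, so by the labels the comparisons with DMSO share control samples. After subtraction of each probe set's mean in its set, the DMSO columns with the same number in the sets of imazalil and 2,4-D had correlations of 0.867 to 0.878 across probe sets, which are not independent. The DMSO columns of the fenbuconazole set correlated with their namesakes in the other sets at 0.105 to 0.198, so the sharing that the labels state was seen between imazalil and 2,4-D, and whether the fenbuconazole set holds the same DMSO arrays was not settled. Of the Ewing sarcoma markers fixed for the check, 7 of 7 measured genes lay above the median in every DMSO array of all 3 sets, against 0 of 5 hepatocyte and 0 of 4 leukocyte and endothelial markers. Of 5 luminal breast markers, 3 were above it in the fenbuconazole set and 2 each in the imazalil and 2,4-D sets. By the study's methods, the 3 replicates were separate experiments on separate batches of this line.

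The levels in vehicle-treated cells were set against the middle of the array, a description that depends on how well each probe set binds and that was not tested between roles. A gene was called above the median when all 3 DMSO arrays of a set exceeded the median of all probe set means in that set, which was 2.77 for fenbuconazole, 3.34 for imazalil and 3.41 for 2,4-D on the log2 scale. In all 3 sets, 16 of the 39 members were above it, 21 were above it in no set, and ABCA7 and ABCC3 differed between sets. Over all 19774 genes, 56.1% were above the median in all sets. The 5 promoters below are shown because they contrast members of both kinds. Each is the stretch of 250 bases before a RefSeq transcription start (GRCh38.p14, all on the minus strand except ABCC2), in lower case with every CG dinucleotide in capitals. ABCC4 (chr13:95301452-95301701) and ABCA5 (chr17:69327134-69327383) were above the median in all 3 sets. ABCA6 (chr17:69141896-69142145), a neighbour of ABCA5, ABCB1 (chr7:87600885-87601134) and ABCC2 (chr10:99782390-99782639) were above it in none.
ABCC4: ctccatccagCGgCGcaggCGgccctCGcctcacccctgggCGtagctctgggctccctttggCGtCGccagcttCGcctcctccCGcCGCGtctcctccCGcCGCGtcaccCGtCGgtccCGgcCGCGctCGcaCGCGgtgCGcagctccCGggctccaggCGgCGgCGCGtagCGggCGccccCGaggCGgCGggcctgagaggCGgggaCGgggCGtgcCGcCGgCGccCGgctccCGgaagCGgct
ABCA5: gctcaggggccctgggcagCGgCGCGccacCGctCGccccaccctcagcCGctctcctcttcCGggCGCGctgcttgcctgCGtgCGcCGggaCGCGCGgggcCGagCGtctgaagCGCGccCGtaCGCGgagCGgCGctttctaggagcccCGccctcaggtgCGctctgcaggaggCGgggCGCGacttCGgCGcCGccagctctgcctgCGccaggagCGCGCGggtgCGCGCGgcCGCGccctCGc
ABCA6: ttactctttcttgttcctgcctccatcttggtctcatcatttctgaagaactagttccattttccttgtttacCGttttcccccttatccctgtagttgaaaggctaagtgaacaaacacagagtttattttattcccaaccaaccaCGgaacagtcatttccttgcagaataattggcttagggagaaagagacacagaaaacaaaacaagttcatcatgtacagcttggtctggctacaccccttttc
ABCB1: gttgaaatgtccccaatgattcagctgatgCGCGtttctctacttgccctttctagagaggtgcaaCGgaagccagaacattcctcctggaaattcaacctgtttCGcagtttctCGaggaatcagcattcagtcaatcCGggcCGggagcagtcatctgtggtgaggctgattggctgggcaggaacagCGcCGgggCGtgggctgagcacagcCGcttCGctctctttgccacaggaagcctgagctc
ABCC2: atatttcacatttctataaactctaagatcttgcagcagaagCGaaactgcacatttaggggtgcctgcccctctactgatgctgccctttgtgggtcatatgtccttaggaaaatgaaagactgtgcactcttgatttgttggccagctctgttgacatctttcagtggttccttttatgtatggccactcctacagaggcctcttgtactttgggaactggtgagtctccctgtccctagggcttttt

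The windows of ABCC4 and ABCA5 each held 42 CG dinucleotides, against 2 for ABCA6, 12 for ABCB1 and 1 for ABCC2. RefSeq windows were found for 32 of the 39 members, and where a gene had several, the one with most CG was counted. Among the 15 matched members above the median in all sets, the count ran from 13 to 42 with a median of 27, and 15 exceeded 11, the median of all 35116 windows. Among the 16 matched members above it in no set, the count ran from 1 to 54 with a median of 7.5, and 6 exceeded 11. The same division held across the genome, so it is not particular to the family: of all 9167 genes above the median with a window, 88.5% exceeded 11, against 44.3% of the 6232 other genes. The letters CCAAT, searched on both strands, occurred in 4 of the 15 and 5 of the 16 members, ABCB1 included, against 37.00% of all genes in the table. TATAAA, searched in the same way, occurred in 2 of the 15 and 2 of the 16, against 13.05% of all genes.

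Among the drug and conjugate pumps, ABCC1 (MRP1, a pump for glutathione conjugates), ABCC4 (which exports cyclic nucleotides and prostaglandins), ABCC5 (a pump for cyclic nucleotides) and ABCC10 were above the median in all sets. ABCB1, ABCB5, ABCC2, ABCC11, ABCC12 and ABCG2 were above it in none. ABCB1 read 2.14, 2.04 and 2.04 in the DMSO arrays of the fenbuconazole set, 2.37, 2.43 and 2.46 in those of the imazalil set, and 2.50, 2.54 and 2.52 in those of the 2,4-D set. Their means differed from the medians of the sets by -0.69, -0.92 and -0.88, and a second ABCB1 probe set was below the median in all sets as well. ABCC1, by contrast, averaged 6.60 ± 0.02, 7.61 ± 0.15 and 7.73 ± 0.12 in the same order of sets (SD, n = 3 each). ABCG2, the breast cancer resistance protein, averaged 2.46 ± 0.17, 2.79 ± 0.13 and 2.95 ± 0.18. A probe set near the floor of the array can hide a change, so a small difference for ABCB1 or ABCG2 bounds what these probe sets show and not the transcript itself.

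All 4 ABCE and ABCF genes were above the median in every set, among them ABCE1, which recycles ribosomes, at 9.75 ± 0.10, 10.35 ± 0.19 and 10.39 ± 0.21. All 4 of ABCB6, ABCB8, ABCB9 and ABCB10, transporters of mitochondria and lysosomes that work as dimers, were above it, ABCB8 and ABCB9 by 0.26 to 0.58 and ABCB6 and ABCB10 by 3.95 to 4.86. The other probe sets of ABCB6, ABCB8 and ABCB9 were above the median in no set, and ABCB10 had no other probe set. Of the ABCD transporters, ABCD3 of the peroxisome and ABCD4, which takes part in releasing vitamin B12 from lysosomes, were above it and ABCD2 was not. Of 10 ABCA lipid transporters, only ABCA3, known for loading surfactant lipids in lung, and ABCA5 were above it in all sets. None of the 5 bile and sterol exporters (ABCB4, ABCB11, ABCG4, ABCG5 and ABCG8) and neither sulfonylurea receptor (ABCC8 and ABCC9, subunits of ATP-sensitive potassium channels) was above it in any set. Choice of probe set mattered here: with the second brightest probe set of the 26 genes that have several, 10 members in place of 16 were above the median in all sets.

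**Figure D1:**
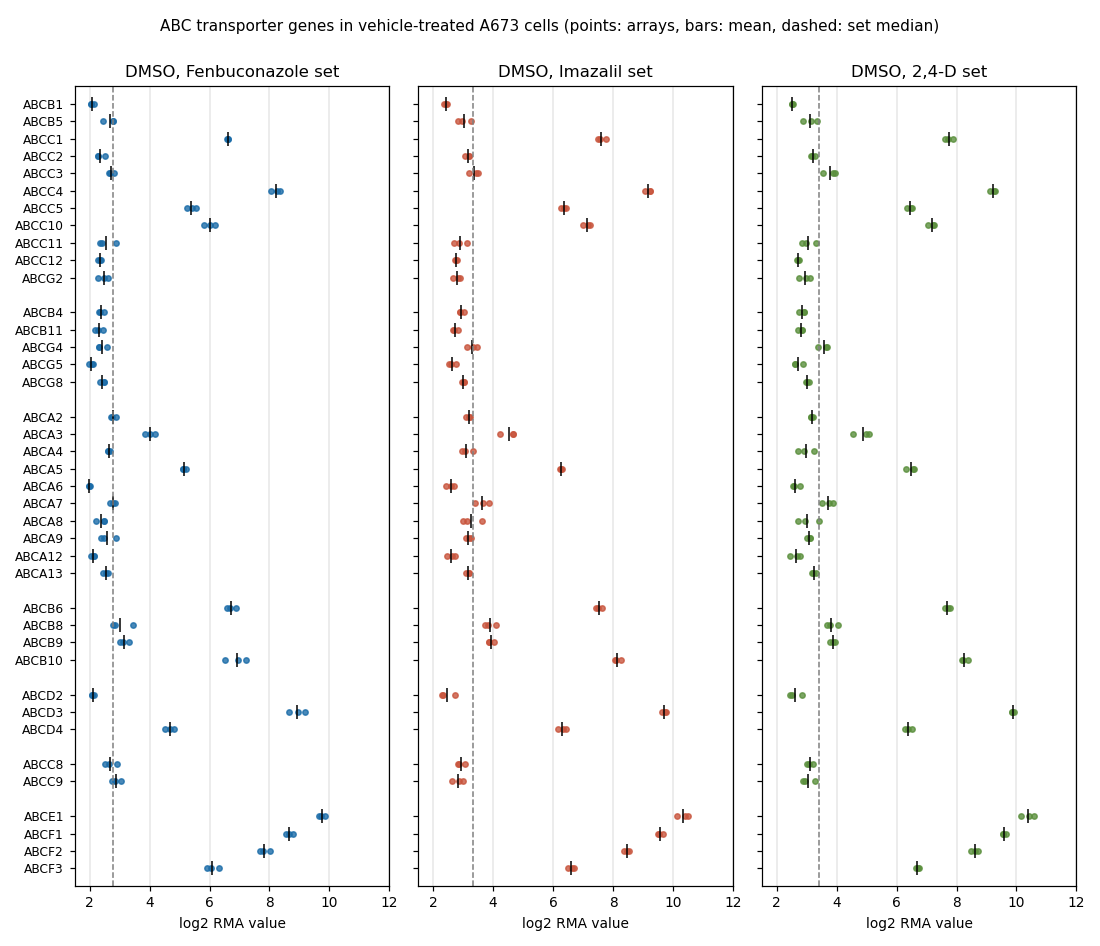
Log2 RMA levels (x axis) of the 39 ABC genes (y axis, grouped by role) in the 3 DMSO arrays (points) of each chemical's set, with their mean (bar) and the median of all probe sets in the set (dashed). The ABCE, ABCF and mitochondrial genes sit right of the dashed line in all 3 sets, ABCB1 and ABCG2 left of it; levels of different probe sets are not comparable with each other.

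The first question was whether any ABC gene responded to the top concentration. At 10 µM, no member passed an adjusted p of 0.05 in limma for fenbuconazole, imazalil or 2,4-D, and no probe set of the 54613 did either (0% called for each chemical). All 39 members entered the tests, with no filter on low values. Changes at 10 µM ran from -0.39 to 0.41 log2 for fenbuconazole (median 0.03), from -0.32 to 0.33 for imazalil (median -0.00) and from -0.16 to 0.17 for 2,4-D (median 0.00). Medians over all probe sets were -0.00, 0.00 and -0.01. The 95% interval of the change stayed within 1 log2 unit, a doubling or halving, for 39 of 39 members with each chemical. It stayed within 0.5 log2 for 36 members with fenbuconazole, 37 with imazalil and 39 with 2,4-D. These intervals bound the probe set values and not the transcripts, since low signal can hide a change. In DMSO, 21 of the 39 members were above the median in no set.

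At an unadjusted p under 0.05, 3 members differed for fenbuconazole (against 7.00% of all probe sets), 4 for imazalil (against 4.75%) and 0 for 2,4-D (against 3.85%). For fenbuconazole 1 was higher (background 3.37%) and 2 lower (3.63%), and for imazalil 2 were higher (2.44%) and 2 lower (2.31%). Directional backgrounds for 2,4-D were 1.71% (higher) and 2.14% (lower). Groups without overlap between 10 µM and DMSO were 5 members higher (background 5.39%) and 2 lower (5.76%) for fenbuconazole. They were 2 higher (4.31%) and 1 lower (3.66%) for imazalil, and 2 higher (3.22%) and 0 lower (3.80%) for 2,4-D.

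**Figure D2:**
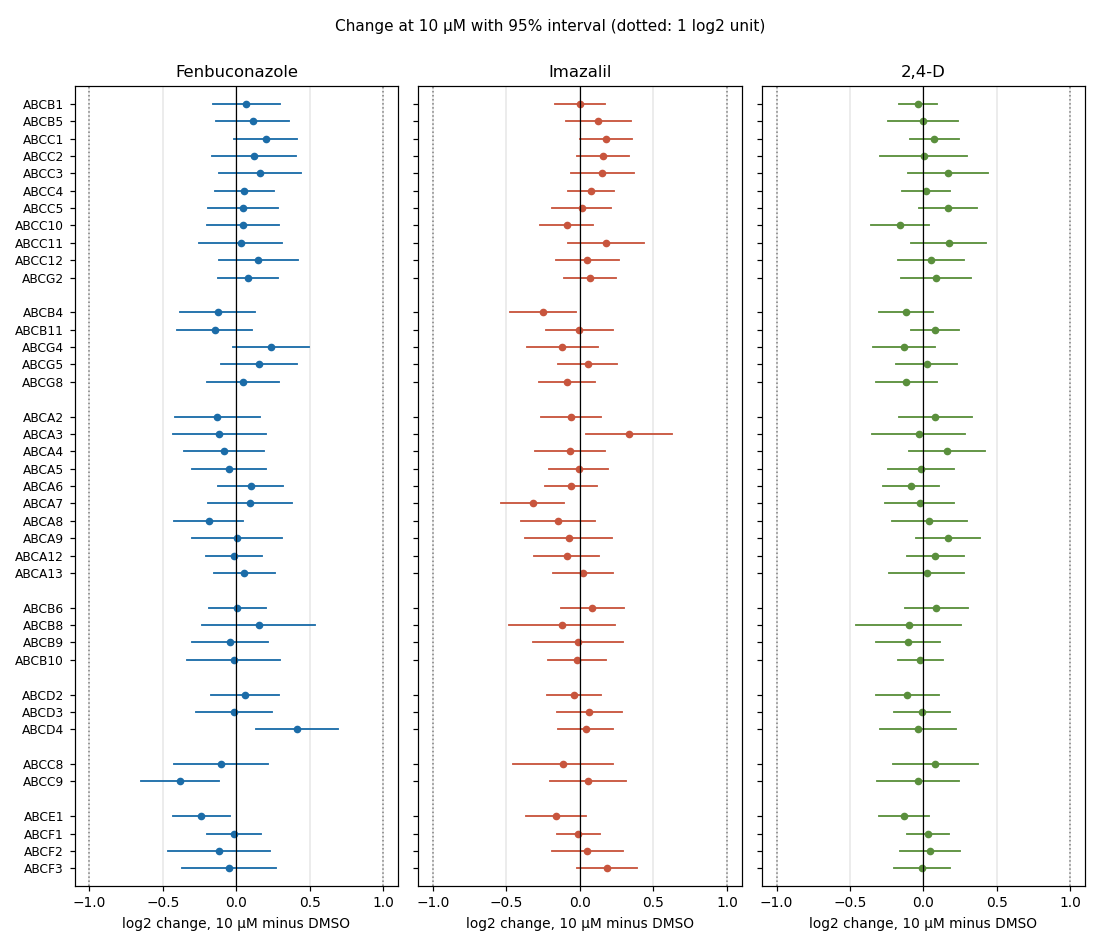
Log2 change at 10 µM minus DMSO (x axis; points) with its 95% interval (lines) for the 39 ABC genes (y axis) under each chemical, n = 3 arrays per group. Every interval lies inside the dotted lines at 1 log2 unit, and the 2,4-D changes are the most narrowly spread, from -0.16 to 0.17.

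None of the multidrug pumps passed the test. ABCB1 read 2.05, 2.28 and 2.09 at 10 µM fenbuconazole, against 2.14, 2.04 and 2.04 in DMSO, a log2 change of 0.07 (SE 0.11, 95% interval -0.16 to 0.29, adjusted p = 0.939 in limma). At 10 µM imazalil it read 2.43, 2.37 and 2.46, against 2.37, 2.43 and 2.46 in DMSO, a change of -0.00 (interval -0.17 to 0.17). At 10 µM 2,4-D it read 2.44, 2.46 and 2.55, against 2.50, 2.54 and 2.52 in DMSO, a change of -0.04 (interval -0.17 to 0.09). The groups overlapped for all 3 chemicals. Over all 9 concentrations the ABCB1 changes ran from -0.10 to 0.09 for fenbuconazole, from -0.13 to 0.09 for imazalil and from -0.06 to 0.03 for 2,4-D. The second ABCB1 probe set had a change of 0.05, 0.02 and -0.09 at 10 µM of the 3 chemicals.

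The mean of ABCC1 was above DMSO for each chemical without passing the test. It read 6.83, 6.87 and 6.71 at 10 µM fenbuconazole, against 6.58, 6.62 and 6.61 in DMSO, without overlap, a change of 0.20 (SE 0.10, adjusted p = 0.734 in limma). At 10 µM imazalil it read 7.79, 7.87 and 7.70, against 7.55, 7.50 and 7.78 in DMSO, a change of 0.18 (SE 0.09, adjusted p = 1.00), with 1 DMSO array among the treated values. For 2,4-D its change was 0.07 (interval -0.09 to 0.24). The second ABCC1 probe set gave 0.07, 0.05 and -0.03. ABCG2 had a change of 0.08 for fenbuconazole (interval -0.12 to 0.28), 0.07 for imazalil (-0.11 to 0.24) and 0.08 for 2,4-D (-0.16 to 0.33).

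Of the 11 drug and conjugate pumps, 11 had a mean above DMSO at 10 µM fenbuconazole, with a median change of 0.08, 9 at 10 µM imazalil (median 0.07) and 8 at 10 µM 2,4-D (median 0.05). None of these passed the test, and the same DMSO arrays stand under all 11 values of a chemical. Of all 39 members, 22 were above DMSO and 17 below for fenbuconazole, 18 and 21 for imazalil, and 20 and 19 for 2,4-D. At 10 µM fenbuconazole, the other probe sets of ABCB1, ABCC1, ABCC4, ABCC10 and ABCC11 were also above DMSO. ABCB5, ABCC3, ABCC5 and ABCC12 each had another probe set below DMSO. The furthest below was that of ABCB5, at -0.27 (SE 0.09), and the furthest above was 1 of ABCC4, at 0.38 (SE 0.17). For 2,4-D the pumps with the smallest p were ABCC5 and ABCC10. ABCC5 read 6.58, 6.70 and 6.54 at 10 µM 2,4-D, against 6.34, 6.47 and 6.50 in DMSO, a change of 0.17 (SE 0.10, adjusted p = 1.00 in limma). Its other 2 probe sets had differences of -0.24 and -0.23, in the other direction. ABCC10 read 7.05, 7.09 and 6.90 at 10 µM 2,4-D, against 7.24, 7.06 and 7.22 in DMSO, a change of -0.16 (SE 0.10).

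**Figure D3:**
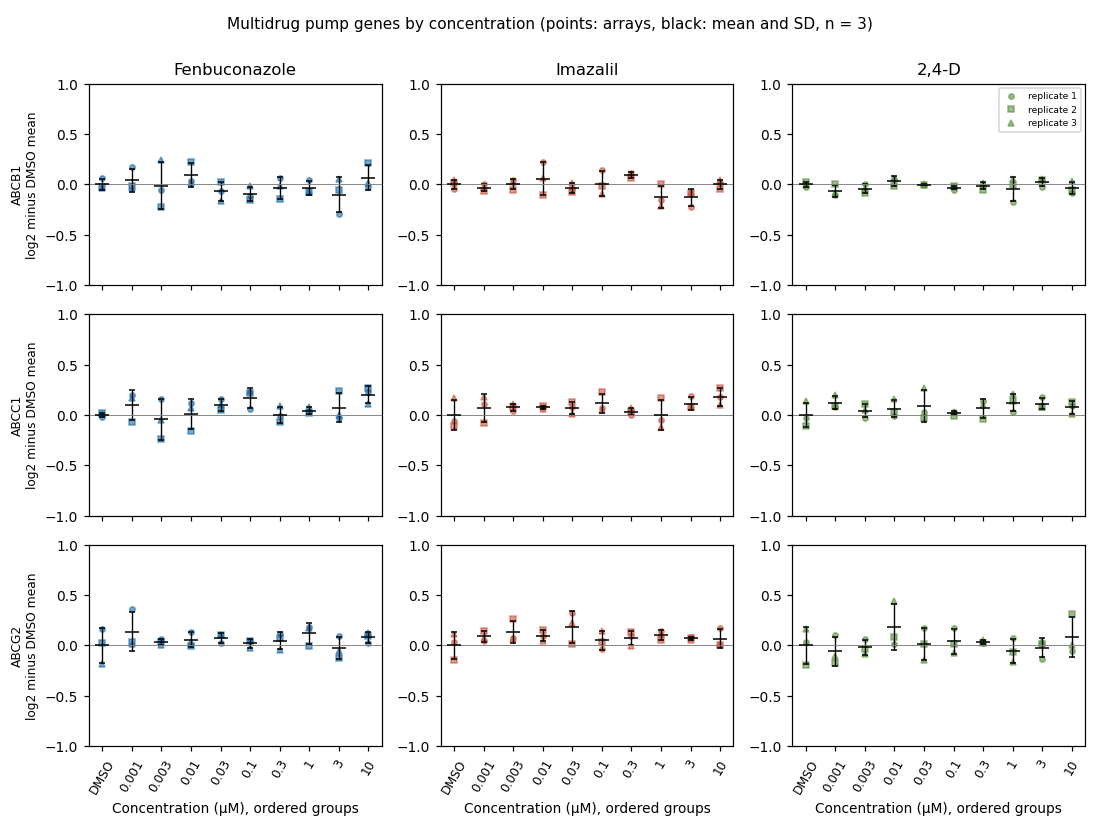
Levels of ABCB1, ABCC1 and ABCG2 as log2 minus the DMSO mean of the set (y axis) by concentration in µM as ordered groups (x axis), with arrays as points and mean ± SD in black (n = 3). The means of the 3 genes run from -0.13 to 0.20 over all concentrations.

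Among the transporters of organelles, ABCD4 had the largest value for fenbuconazole. It read 5.26, 5.10 and 4.88 at 10 µM fenbuconazole, against 4.69, 4.50 and 4.82 in DMSO. The lowest treated array was above the highest DMSO array, and the change was 0.41 (SE 0.14, interval 0.13 to 0.69, adjusted p = 0.521 in limma). The second ABCD4 probe set had a change of 0.02 (SE 0.13). For imazalil and 2,4-D the change of ABCD4 was 0.04 and -0.04. The other 6 organelle transporters differed from DMSO by -0.12 to 0.15 across the 3 chemicals.

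ABCC9, the sulfonylurea receptor of heart and vascular smooth muscle, lay on the other side. It read 2.47, 2.34 and 2.66 at 10 µM fenbuconazole, against 3.05, 2.84 and 2.73 in DMSO, a change of -0.39 (SE 0.13, interval -0.65 to -0.12, adjusted p = 0.521 in limma). The groups did not overlap, but the level was near the median of the set, and the other 4 ABCC9 probe sets had a change of -0.14, 0.15, -0.15 and -0.15. ABCE1, the ribosome recycling factor, read 9.64, 9.44 and 9.44 at 10 µM fenbuconazole, against 9.72, 9.66 and 9.85 in DMSO, a change of -0.24 (SE 0.09, adjusted p = 0.603). Its second probe set had a change of -0.14. At 10 µM imazalil and 2,4-D, ABCE1 had a change of -0.17 (SE 0.10) and -0.13 (SE 0.08), with overlap between groups.

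For imazalil, ABCA7, ABCA3, ABCB4 and ABCC1 (described above) were the 4 members with an unadjusted p under 0.05. ABCA7, a phospholipid transporter, read 3.29, 3.20 and 3.46 at 10 µM imazalil, against 3.41, 3.65 and 3.85 in DMSO, a change of -0.32 (SE 0.10, interval -0.54 to -0.11, adjusted p = 0.890 in limma). 1 treated array was above the lowest DMSO array. ABCA3 read 4.81, 5.10 and 4.64 at 10 µM imazalil, against 4.65, 4.68 and 4.24 in DMSO, a change of 0.33 (SE 0.14, adjusted p = 1.00) with overlap. ABCB4, which flips phosphatidylcholine into bile in liver, read 2.73, 2.60 and 2.73 at 10 µM imazalil, against 3.04, 2.89 and 2.88 in DMSO, a change of -0.25 (SE 0.11) without overlap. Its second probe set had a change of -0.13. The 10 ABCA genes had a median change of -0.03, -0.07 and 0.03 at 10 µM fenbuconazole, imazalil and 2,4-D. ABCA9 read 3.38, 3.18 and 3.15 at 10 µM 2,4-D, against 3.12, 3.10 and 2.99 in DMSO, a change of 0.17 (SE 0.11) without overlap.

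A second question was whether a lower concentration or the whole series showed a response. Across the 27 comparisons of a concentration with DMSO, 0 of 1053 member values passed the adjusted threshold (the most in any 1 comparison was 0.00183% of all probe sets, for fenbuconazole at 0.003 µM), and the smallest adjusted p was 0.29, that of ABCC9 at 0.03 µM fenbuconazole. At an unadjusted p under 0.05 there were 57 such values, or 5.41%, against 5.14% over all probe sets. Member changes ran from -0.45 to 0.43, and the 95% intervals spanned -0.73 to 0.71. The moderated F over the 9 concentrations called 0 members for each chemical (0% of all probe sets). Unadjusted, it gave 1 member for fenbuconazole (background 4.73%), 5 for imazalil (3.38%) and 0 for 2,4-D (3.77%). The 5 for imazalil were ABCA7, ABCA13, ABCB11, ABCC2 and ABCC3, which were chosen for naming after their values were seen.

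ABCD4 was above DMSO at all 9 concentrations of fenbuconazole, with changes of 0.21 to 0.43, among them 0.34 at 0.001 µM and 0.31 at 1 µM. ABCC9 was below DMSO at all 9, with changes of -0.13 to -0.45, the lowest value being at 0.03 µM, and ABCE1 was below at all 9, with changes of -0.09 to -0.30. In all, 7 members were above DMSO at every fenbuconazole concentration and 5 below, against 13.0% and 13.6% of all probe sets. For imazalil the counts were 2 and 6 (12.1% and 10.4%), and for 2,4-D 3 and 4 (9.57% and 11.1%). The 9 concentrations of a chemical share 3 DMSO arrays, so these are not 9 separate observations.

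**Figure D4:**
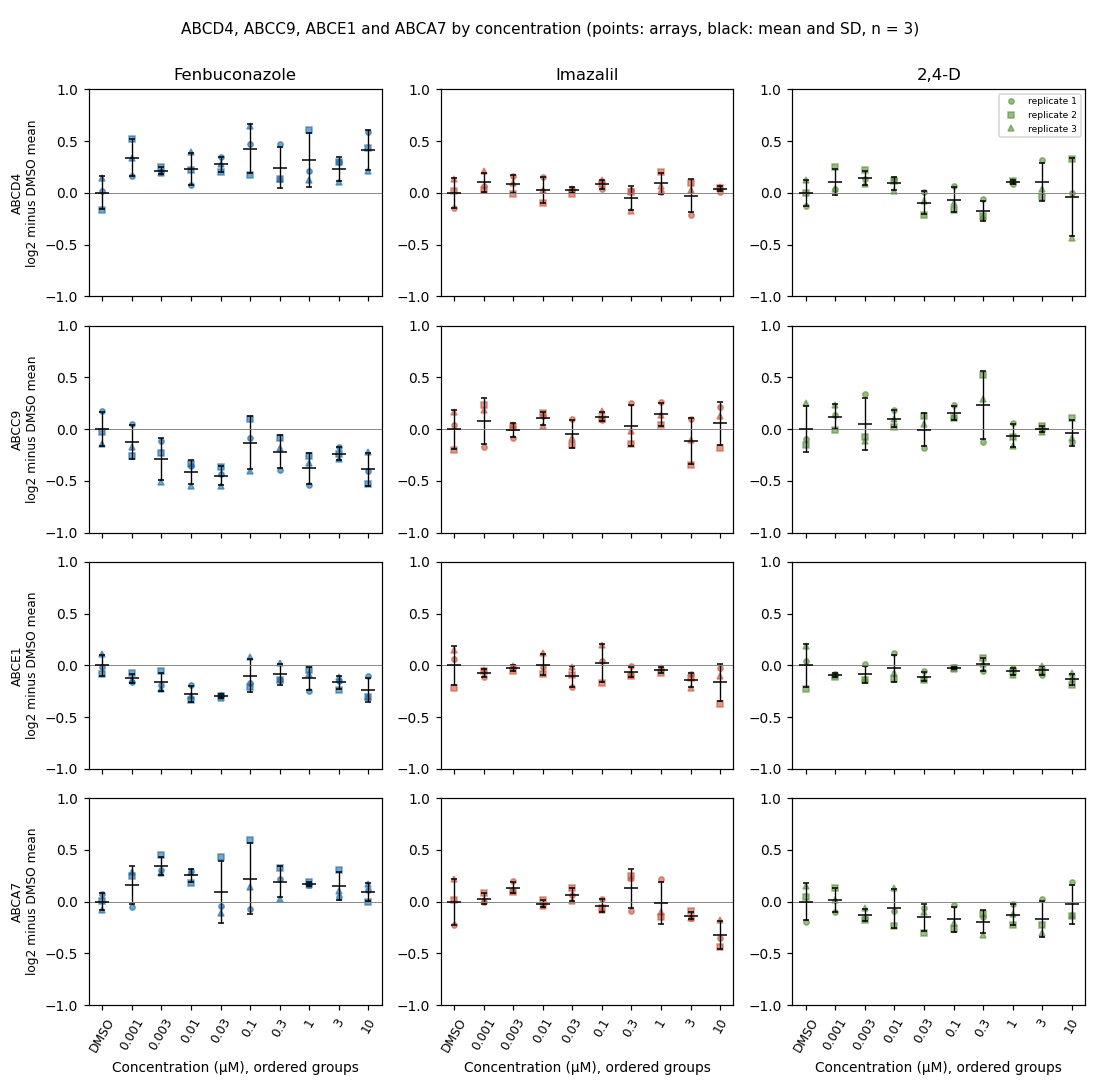
ABCD4, ABCC9, ABCE1 and ABCA7 as log2 minus the DMSO mean of the set (y axis) by concentration in µM as ordered groups (x axis), with arrays as points and mean ± SD in black (n = 3). Under fenbuconazole ABCD4 sits above 0 and ABCC9 and ABCE1 below 0 at every concentration, whereas the lowest ABCA7 means under imazalil are at 3 and 10 µM.

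The slope on log10 concentration over the 27 treated arrays used no DMSO array. It called 0 members for fenbuconazole, imazalil and 2,4-D, against 0%, 0.00183% and 0% of all probe sets. ABCA7 had the steepest slope of any member for imazalil, at -0.07 log2 per unit of log10 concentration (SE 0.02, adjusted p = 0.975 in limma). Its changes against DMSO were -0.01 at 1 µM, -0.14 at 3 µM and -0.32 at 10 µM. ABCA2, known from myelin lipid biology, had the next smallest p, with a slope of -0.04 (SE 0.02, adjusted p = 0.986). Unadjusted, 5 members had a p under 0.05 for imazalil (against 4.92% of all probe sets), 0 for fenbuconazole (4.30%) and 1 for 2,4-D (3.67%), which was ABCB11 (-0.03, SE 0.01), the bile salt export pump. The slope of ABCD4 under fenbuconazole was not among them, nor was that of ABCC9. For fenbuconazole, ABCB9 and ABCA7 had the smallest p, with slopes of -0.04 and -0.03. For 2,4-D, ABCG5 had a slope of -0.03.

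The 3 chemicals were compared in pairs at 10 µM as differences between their changes against DMSO. Imazalil and fenbuconazole both carry an azole ring, an imidazole and a triazole, and 2,4-D carries none. Over the 3 pairs, 0 members passed the adjusted threshold, against 0.00183% of probe sets for fenbuconazole minus imazalil and 0% for the other pairs. For fenbuconazole minus imazalil, the members with the smallest p were ABCC9 at -0.44 (interval -0.82 to -0.07, adjusted p = 1.00 in limma) and ABCA7 at 0.41 (interval 0.07 to 0.76). For fenbuconazole minus 2,4-D, they were ABCD4 at 0.45 (interval 0.11 to 0.79, adjusted p = 0.878) and ABCG4, a sterol exporter, at 0.37 (interval 0.04 to 0.70). For imazalil minus 2,4-D, they were ABCA3 at 0.37 and ABCA7 at -0.29 (adjusted p = 1.00 for both). At an unadjusted p under 0.05, 5 members differed in the first pair (4.56% of all probe sets), 2 in the second (5.06%) and 0 in the third (0.859%), where the DMSO arrays shared by both sets were counted as separate. All member intervals lay within 1 log2 unit, and 30, 26 and 30 of 39 lay within 0.5 in these 3 pairs, also with every DMSO column counted as a separate array.

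A last comparison was between the replicate numbers, which mark separate experiments. It called 2 members, about the share called among all probe sets. With the 10 groups as covariate, the moderated F over the 3 replicate numbers called 0 members in the fenbuconazole set (0.837% of all probe sets), 1 in the imazalil set (2.13%) and 1 in the 2,4-D set (3.63%). The member called in the imazalil set was ABCA3 (F = 16.8, adjusted p = 0.00518 in limma). Over 10 arrays each, it averaged 4.66 ± 0.14, 4.84 ± 0.12 and 4.54 ± 0.13 (SD) in replicates 1, 2 and 3. Without replicate 2 or without replicate 3, the call was lost (adjusted p = 0.403 and 0.163). In the 2,4-D set, ABCA3 averaged 4.95 ± 0.16, 5.00 ± 0.15 and 4.78 ± 0.22 (adjusted p = 0.143), and in the fenbuconazole set 3.70 ± 0.16, 3.85 ± 0.22 and 3.82 ± 0.23. The member called in the 2,4-D set was ABCB6, a transporter linked to porphyrins, named after its value was seen (adjusted p = 0.0424). It averaged 7.75 ± 0.09, 7.81 ± 0.08 and 7.63 ± 0.10. Its call was lost without any 1 of the replicates, without the DMSO arrays and with array weights. ABCB8, ABCA9 and ABCC10, the next by their largest p over the sets, passed in none.

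**Figure D5:**
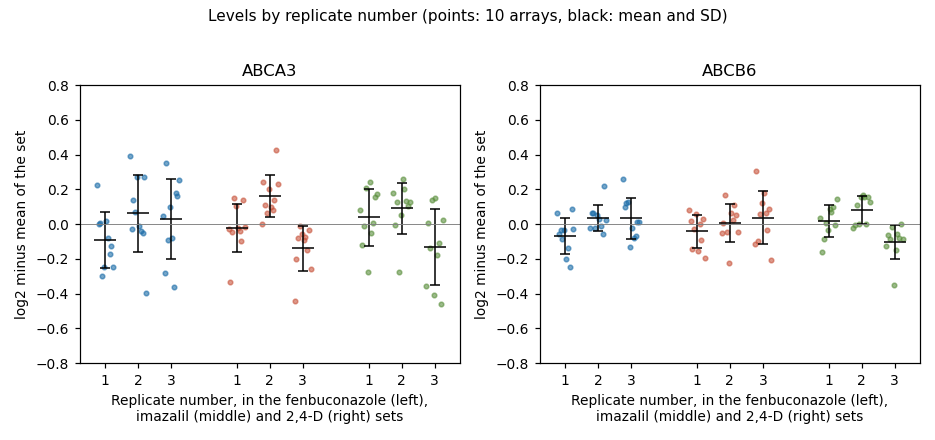
ABCA3 and ABCB6 as log2 minus the mean of the set (y axis) by replicate number within each chemical's set (x axis), with the 10 arrays of a number as points and mean ± SD in black. ABCA3 is highest in replicate 2 and lowest in replicate 3 of the imazalil set, and ABCB6 lowest in replicate 3 of the 2,4-D set.

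Genes that act with the family did not pass the test either. Of 16 regulators of ABCB1 and targets of PXR and CAR, nuclear receptors that sense foreign chemicals, 0 passed the adjusted threshold at 10 µM of any chemical. Medians were -0.02, -0.00 and 0.00 for fenbuconazole, imazalil and 2,4-D. The smallest p was that of NR1I3, which encodes CAR. It read 2.71, 2.12 and 2.59 at 10 µM fenbuconazole, against 3.05, 3.44 and 2.97 in DMSO, a change of -0.68 (SE 0.15, adjusted p = 0.230 in limma) without overlap. These levels were near the median of the set, 2.77. The change of NR1I3 was -0.17 at 10 µM imazalil and 0.16 at 10 µM 2,4-D. HSF1, the heat shock factor, had a change of -0.25 for fenbuconazole, ALAS1, the first enzyme of heme synthesis, of 0.21 for imazalil and VDR, the vitamin D receptor, of -0.32 for 2,4-D, none past the threshold. Of 16 drug uptake carriers, 0 passed, with SLCO3A1 at 0.41 (SE 0.17) and SLC19A1, the reduced folate carrier, at -0.27 (SE 0.11) for fenbuconazole. Of 14 partners of ABC proteins and 3 further family genes (CFTR, TAP1 and TAP2), 0 passed for any chemical. Within the family, several probe sets of 1 gene often pointed in different directions: of the 26 genes with more than 1, all probe sets had the same sign in 12, 12 and 9 genes for fenbuconazole, imazalil and 2,4-D.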

How the data were processed

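Total RNA of A673 cells, plated at 26000 per well, was measured on arrays with perfect-match probes. The authors deposited log2 values per probe set, made by RMA in Partek over the 30 columns of each chemical. Levels were not compared across sets, since background correction and quantile normalization ran within a chemical. Versions of RMA and Partek are not given in the sources used here. Groups and concentrations came from the labels. Manufacturer controls (102 probe sets) were dropped. Gene names came from the platform annotation, in which 40914 probe sets had 1 symbol, 864 several and 12835 none; several or none were never named. Suffixes s_at and x_at, on 12 of the chosen probe sets, mark possible matches to more than 1 transcript.

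The deposited log2 values were fitted in R 4.3.3 by limma 3.58.1 (files read with data.table of version 1.17.8), 1 model per chemical with contrasts of 9 concentrations against DMSO, a moderated F, a slope on log10 concentration and an F over replicate numbers. Pairs of chemicals were compared in 1 model of all 90 columns. P-values were adjusted by Benjamini-Hochberg over 54613 probe sets, with a threshold of 0.05. The precision is limited by 3 arrays per group. By the study's methods the replicates were separate experiments on separate cell batches, and the labels' run numbers fall in consecutive blocks by replicate (169 to 196, 197 to 224 and 225 to 252), so the number was taken to pair arrays across groups. Deviations of same-numbered arrays correlated at a mean of 0.042, 0.0689 and 0.0781 in the fenbuconazole, imazalil and 2,4-D sets, against -0.021, -0.0345 and -0.039 for other numbers. The methods name no block for the arrays, so the fit with a block was an alternative. Scripts were tested on simulated data. Values in every array are given for ABCB1, ABCC1 and the members with the smallest p at 10 µM (2 per direction and chemical). Exceptions are ABCC1 and ABCE1 at 10 µM 2,4-D, for which only the change is given. ABCG2 is described by its DMSO means and its changes. Also named are the 2 of smallest p for trends and pairs and the 4 with the smallest largest p by replicate number. Members, gene lists and alternatives were chosen with earlier results of these data known. Alternatives covered normalization, filters, probe set choice, variance model, samples and replicates. Promoters are RefSeq sequences from a table of GRCh38.p14. Python 3.11.15, pandas 2.3.3, numpy 2.4.6 and matplotlib 3.10.9 were used.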

Additional observations from a re-analysis of the deposited data

How the results depend on the processing

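No member was called for any chemical, concentration series, trend or pair of compounds in any of 153 alternatives to those counts, where the smallest adjusted p was 0.349. With the replicate number as a block, which pairs the arrays by experiment, 0 members were called at 10 µM or over all concentrations. Trends and pairs also gave 0 members, as without the block, so no member call changed. Over all probe sets, the block called 4 at 10 µM fenbuconazole, 2 at 10 µM imazalil and 0 at 10 µM 2,4-D. Without it, 0 were called for each chemical. Counts by replicate number depended on the fit. In the imazalil set, leaving out 1 replicate gave 0 to 1 members in place of 1. In the 2,4-D set, 1 member became 2 without dim probe sets, 2 with a trended and robust variance, 4 with second probe sets, and 0 with array weights, with treated columns only (an alternative chosen after seeing the data) and on leaving out any replicate (0 to 0). ABCC10 passed there on its second probe set (F = 9.82, adjusted p = 0.0319). On leaving out 1 replicate of the imazalil set, ABCA3 by replicate number had a squared moderated t of 5.43 to 33.8. With 2 numbers left, this is not on the scale of the F of 16.8 over 3 numbers. The members above the median in all DMSO arrays numbered 10 with second probe sets, in place of 16. Of 548 alternatives to 43 values of named members, 523 kept direction and side of the threshold and 22 changed sign, all in changes that had not passed the test. Those by replicate number are F or squared t values, which cannot change sign. Of the 43, only ABCA3 by replicate number in the imazalil set had passed, so for the others only a new call could change the side. At 10 µM fenbuconazole, leaving out 1 array gave -0.0048 to 0.11 for ABCB1 and -0.012 to 0.16 for ABCG2. At 10 µM imazalil, ABCB1 became 0.0011 with equal array medians, 0.021 against the other 8 concentrations, 0.0049 with array weights, 0.022 on its second probe set and -0.025 to 0.025 on leaving out 1 array, and ABCG2 became -0.033 against the other 8 concentrations and -0.0044 to 0.12 on leaving out 1 array. At 10 µM 2,4-D, ABCC1 became -0.0052 against the other 8 concentrations and -0.032 on its second probe set, ABCG2 ranged from -0.027 to 0.17 on leaving out 1 array, and second probe sets gave -0.24 for ABCC5 and 0.020 for ABCC10. Second probe sets also gave slopes of 0.0018 for ABCB9 (fenbuconazole) and 0.027 for ABCB11 (2,4-D), a difference of 0.047 for ABCC9 (fenbuconazole minus imazalil) and of -0.054 for ABCD4 (fenbuconazole minus 2,4-D). ABCG4 became -0.059 (fenbuconazole minus 2,4-D) against the other 8 concentrations. The cause of these shifts was not tested. In the 21 members above the median in no set, low probe signal can hide a change, and how far it did so was not tested.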
